A study of Mus musculus with 30 samples.

Results

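Heat shock proteins and chaperonins, the proteins that keep other proteins folded, were followed at the transcript level in the mouse ovary before birth. Members were all genes whose platform annotation gives a single symbol beginning with Hsp, with Dnaj, or with Cct and a digit, and every one of their probe sets on arrays A, B and C was taken. The rule found 79 genes with 173 probe sets, of 15964 genes with a single symbol and 36701 probe sets that are not controls. Of the 84 protein-coding genes of RefSeq whose symbol fits the same pattern, 79 had such a probe set, and Hsp90ab1, Dnajc5b, Dnajc5g, Dnajc6 and Dnajc19 are not analysed here. The rule goes by name, so it takes in Hspg2, the matrix proteoglycan perlecan, which is no chaperone, and it leaves out Tcp1, the first subunit of the cytosolic chaperonin.

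HSP70 proteins bind exposed stretches of an unfolded chain in a cycle driven by ATP. J-domain proteins, the Dnaj genes, bring them their clients and start ATP hydrolysis, and HSP110 proteins exchange the nucleotide so that the client is let go. HSP90 acts later on kinases and steroid receptors, the small heat shock proteins hold unfolded chains without ATP, and the chaperonins enclose a chain in a ring-shaped chamber, CCT in the cytosol for actin and tubulin and HSP60 with its lid HSP10 in mitochondria. Many of these genes are switched on by heat shock factors through heat shock elements, while those of the endoplasmic reticulum (ER) answer to the unfolded protein response. In the embryonic ovary over these ages the female germ cells stop dividing, enter meiosis and begin to be enclosed in follicles.

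Total RNA of pooled ovaries was taken from BL/6-129 mouse embryos, a mixed background for which the labels name no allele and no treatment, at 11.5, 12.5, 14.5, 16.5 and 18.5 days post coitum (dpc). There were 2 numbered samples per age, and each of the 10 numbers had 1 array of each of the 3 types, 30 arrays in all. The gonads of 11.5 and 12.5 dpc were sexed by PCR for Sry, per the labels. Whether both samples of an age were drawn from different pools is not said in the labels, so the p-values reflect only how far these samples differ, and that difference may be technical.

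Values are signal intensities, which the authors scaled to a mean of 125 on each array. Signals depend on the probes and on the array type, so they are compared between ages and never between genes. Tests were run on log2(signal + 16) with limma, 1 fit per array type over all probe sets that reached a signal of 50 on at least 2 of the 10 arrays. A change was called at a p-value under 0.05 after Benjamini-Hochberg adjustment over all 24825 probe sets tested on the 3 types. Log2 changes are given as 18.5 over 11.5 dpc unless another pair is named, with the standard error of the model after the ± sign, and on this scale changes of dim genes are understated. Of the members, 132 probe sets of 72 genes passed the filter and were tested. The 7 genes without a tested probe set were Hspa1b, Hspa1l, Hspb9, Dnajb5, Dnajb7, Dnajc22 and Cct8l1. In RNA of a whole organ, fewer cells of a type and less RNA per cell cannot be told apart.

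Transcript levels of the family moved in both directions. Between the ends of the time course 15 member probe sets rose and 15 fell, 30 of 132 (22.7%) against 14.5% of all tested probe sets. That is 11.4% in each direction, against 7.59% of all probe sets higher and 6.87% lower. The called probe sets stood for 27 genes. The median log2 change over the tested members was -0.02 (0.0026 with quantile normalization), and over all tested probe sets it was 0.02. Over the 5 ages, in the F test, 26 member probe sets of 23 genes were called, 19.7% against 14.4% of all. The mean signal of these 26 was highest at 11.5 dpc for 7, at 12.5 dpc for 4, at 14.5 dpc for 2, at 16.5 dpc for 5 and at 18.5 dpc for 8. Over all 3565 probe sets called in this test the numbers were 846, 624, 404, 664 and 1027. The ages thus ranked in the same order among members and among all called probe sets. The count between the ends was 7 without the first and 9 without the second 18.5 dpc sample, and 17 without the first 11.5 dpc sample. That of the F test was 11 and 13 without the first and the second 18.5 dpc sample, 14 without the second 16.5 dpc sample and 17 without the first 12.5 dpc sample. How many of all tested probe sets were called without these samples was not counted, so these lower counts have no baseline. The array type bears on the shares from all samples. On array A 18 of 65 members were called between the ends (27.7%, against 22.3% of all probe sets of that type), on array B 7 of 37 (18.9%, against 13.1%) and on array C 5 of 30 (16.7%, against 8.77%). In the F test the order between members and all probe sets differed by type, with 30.8% of members against 21.7% on array A, 10.8% against 13.5% on array B and 6.67% against 8.68% on array C.

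Of all tested probe sets, 7.59% were called higher and 6.87% lower between the ends. Among the roles, the cytosolic chaperonin subunits had no probe set called higher, and 5 of their 15 tested probe sets fell (33.3%). Among the small heat shock proteins, grouped by symbol, 2 of 8 rose (25%) and none fell. Of these 2, Hspb11 is despite its name an intraflagellar transport protein. J-domain proteins of type C, the most varied class, had 7 rising (15.9%) and 3 falling (6.82%) of 44. Those of type B had 3 rising and 3 falling of 24 (12.5% each), and those of type A had 1 rising of 6. Of the HSP70 and HSP110 genes 1 of 24 probe sets rose (4.17%) and 2 fell (8.33%). Of the HSP90 genes 1 of 2 fell, and of the mitochondrial chaperonin 1 of 3 fell. The shares of HSP70 and HSP110, and the falling share of type C, were near those of all probe sets. The median log2 change was -0.43 for the cytosolic chaperonin, -0.12 for HSP70 and HSP110, 0.50, -0.19 and 0.13 for J-domain types A, B and C, and 0.75 for the small heat shock proteins. These signs were the same under quantile normalization and under median centring. Their sizes rest in part on single samples: without the first 11.5 dpc sample the medians were -0.225 for the cytosolic chaperonin, -0.03 for HSP70 and HSP110 and -0.06 for J-domain type B, and that of type C was 0.08 without the second 11.5 dpc sample, with 0.23 and 0.03 without the first and the second 18.5 dpc sample. HSP70 and HSP110 had -0.07 without the first 18.5 dpc sample. The counts rest on them too, though the shares of all probe sets called without these samples were not counted. Without either 18.5 dpc sample, 1 cytosolic chaperonin probe set fell, no small heat shock protein and no J-domain protein of type B rose, and of type C 2 or 3 rose and 2 fell. Without the first 11.5 dpc sample 2 cytosolic chaperonin probe sets fell. The test was made per probe set, and no difference between roles was tested. In all, 32 of the 72 tested genes had a call in at least 1 comparison. The other 40 had 61 tested probe sets with log2 changes from -1.37 (Dnajb2) to 2.38 (Hspb1) and a median of -0.01. The count of 32 pools all comparisons and all probe sets of a gene. The matching share over all genes was not counted, so it has no baseline here.

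**Figure D1:**
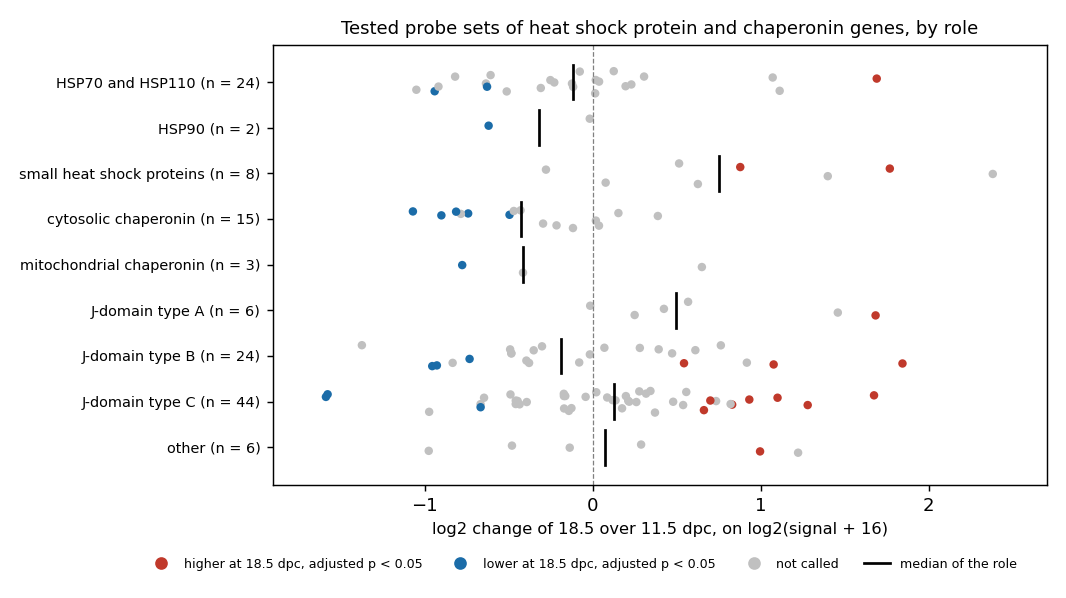
Log2 change of 18.5 over 11.5 dpc (horizontal axis, log2 of signal + 16) of the 132 tested member probe sets, 1 point each. Rows are roles as set by gene symbol, so Hspb11 stands among the small heat shock proteins. Red points were called higher at 18.5 dpc and blue points lower, grey points were not called, and black bars are the medians of the roles, from -0.43 for the cytosolic chaperonin to 0.75 for the small heat shock proteins.

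Changes between neighbouring ages were few. For 12.5 over 11.5 dpc limma called 0 member probe sets, against 0.226% of all tested probe sets. For 14.5 over 12.5 dpc 3 members rose, Hspa4l, Dnajb11 and Dnajc15, which is 2.27% against 1.66% of all. For 16.5 over 14.5 dpc 1 member rose, Hspg2, 0.758% against 0.689% of all. For 18.5 over 16.5 dpc 1 member rose, Hsph1, 0.758% against 0.624% of all. The member shares of the last 3 intervals were near those of all probe sets.

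The cytosolic chaperonin CCT is a double ring of different subunits that folds actin and tubulin. Among its genes Cct3, Cct4, Cct5 and Cct6a each had at least 1 probe set that fell with age, while Cct2 and Cct7 had none. Cct3 had signals of 1346 and 1182 at 11.5 dpc, 1533 and 1412 at 12.5 dpc, 1252 and 1288 at 14.5 dpc, 891 and 835 at 16.5 dpc, then 767 and 730.2 at 18.5 dpc. Both samples of 16.5 and of 18.5 dpc lay below every sample of the earlier ages. Its log2 change was -0.74 ± 0.14 (adjusted p = 0.00385), and without the second 18.5 dpc sample the adjusted p was 0.0514. The called probe set has the suffix s. The other tested Cct3 probe sets were not called, with log2 changes of -0.29, 0.39 and -0.78. The first of these, a bright probe set without such a suffix, had means of 931 at 11.5 dpc and 755 at 18.5 dpc.

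Cct5 was called on both of its probe sets. The brighter one had 1932 and 2107 at 11.5 dpc, 2266 and 2419.5 at 12.5 dpc, 1988 and 1877 at 14.5 dpc, 1644 and 1555 at 16.5 dpc, then 1341 and 1519.8 at 18.5 dpc. The 16.5 and 18.5 dpc samples were again the lowest, with no overlap with the younger ages, and the log2 change was -0.49 ± 0.14 (adjusted p = 0.0307). This call was lost when either 18.5 dpc sample or the second 11.5 dpc sample was left out, with an adjusted p of up to 0.245. The dimmer Cct5 probe set had a log2 change of -0.90 ± 0.25 (adjusted p = 0.0312) and lost its call without either 18.5 dpc sample or the first 11.5 dpc sample, with an adjusted p of up to 0.197.

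Cct4 gave different answers on its 2 probe sets. The one on array B had 299 and 252 at 11.5 dpc, 207 and 190.3 at 12.5 dpc, 202 and 264 at 14.5 dpc, 112 and 85.8 at 16.5 dpc, then 97.9 and 152 at 18.5 dpc. The 4 samples of 16.5 and 18.5 dpc were below all others, and the log2 change was -1.07 ± 0.25 (adjusted p = 0.013, up to 0.141 without the first sample of 11.5 or of 18.5 dpc). On array A the Cct4 signals were 1904 and 1313 at 11.5 dpc, 1590 and 1483 at 12.5 dpc, 1809 and 1494 at 14.5 dpc, 1403 and 1444 at 16.5 dpc, then 1597 and 1158 at 18.5 dpc. There the 18.5 and 11.5 dpc samples overlapped, while both 16.5 dpc samples lay below those of 12.5 and 14.5 dpc. No comparison was called (-0.21 ± 0.20 between the ends, adjusted p = 0.523).

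Cct6a had the adjusted p nearest to the threshold among these genes. Its probe set with the suffix f, which marks probes that may also match related transcripts, had 1274 and 674 at 11.5 dpc, 620 and 760.4 at 12.5 dpc, 819 and 769.9 at 14.5 dpc, 386 and 511 at 16.5 dpc, then 477 and 569.5 at 18.5 dpc. Both 18.5 dpc samples were below all those of 11.5, 12.5 and 14.5 dpc, and the first 11.5 dpc sample stood above the rest. The log2 change was -0.81 ± 0.25 (adjusted p = 0.048), and the call was lost when any 1 of 9 of the 10 samples was left out, with an adjusted p of up to 0.295. Its other probe set gave 0.02 and was not called.

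Cct8 was called only over the 5 ages (F test, adjusted p = 0.0189). Its signals were 1037 and 766 at 11.5 dpc, 1081 and 929.7 at 12.5 dpc, 976 and 716 at 14.5 dpc, 520.3 and 471 at 16.5 dpc, then 697 and 587 at 18.5 dpc. The 16.5 dpc samples were the lowest of all, below both neighbours without overlap, and the log2 change of 18.5 over 11.5 dpc was -0.47 ± 0.19 (adjusted p = 0.129). Cct7 had means of 963 ± 130 at 11.5 dpc, 1279 ± 175 at 12.5 dpc and 884 ± 75.6 at 18.5 dpc (± SD, 2 samples each). Between the ends its log2 change was -0.12 ± 0.16. Cct2 had 241 ± 26.4 at 11.5 dpc and 252 ± 72.2 at 18.5 dpc. Neither was called in any comparison. Cct6b, a relative of Cct6a known for its expression in mouse testis, had its highest signals at 16.5 dpc on its brighter probe set, 198 and 267, without a call. Between the ends its 2 probe sets gave -0.43 and 0.15. Cct8l1 stayed at or below 47.9 and was not tested. Tcp1, the subunit outside the rule, had a log2 change of -0.05 and was not called.

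**Figure D2:**
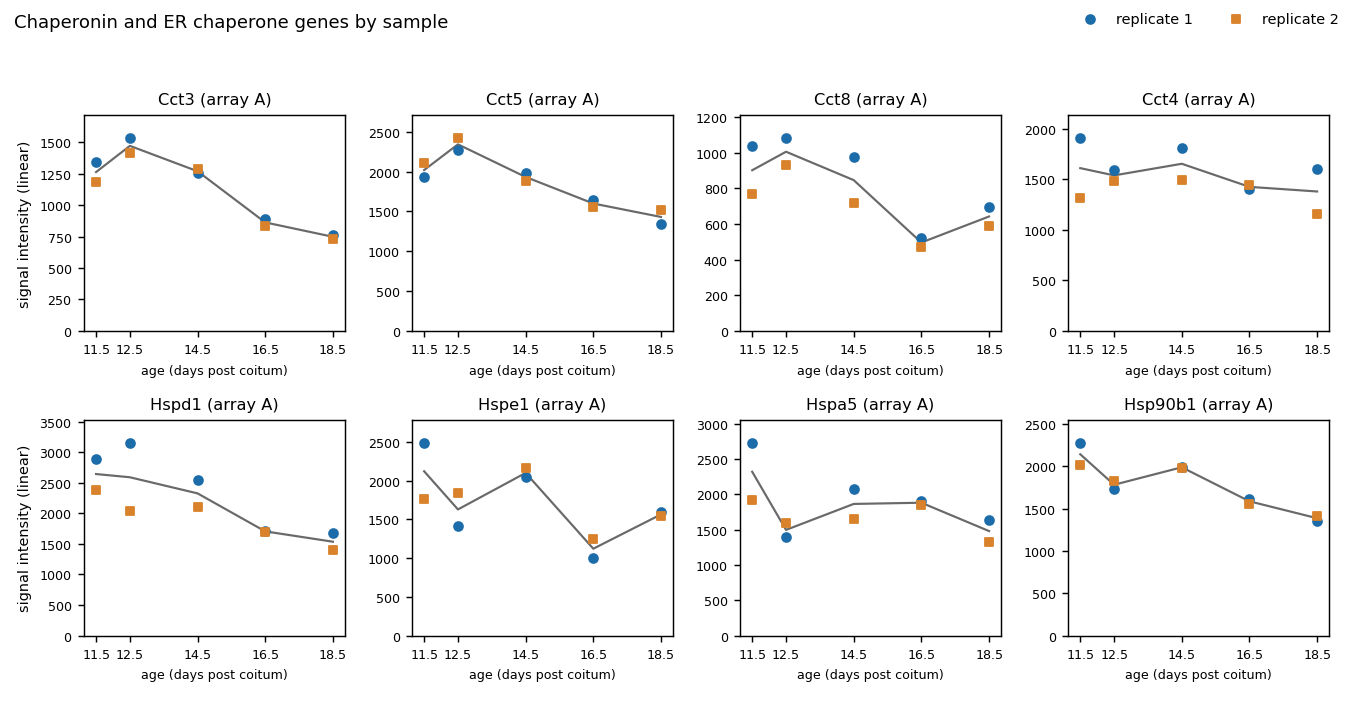
Signal intensity (linear axis from 0) by age in days post coitum for subunits of the cytosolic chaperonin, both genes of the mitochondrial chaperonin and 2 ER chaperones. Circles are the first and squares the second sample of an age, and the line joins the means. Cct3, Cct5, Hspd1, Hspa5 and Hsp90b1 ended below their 11.5 dpc signals, Cct4 on array A was not called, and Cct8 and Hspe1 were lowest at 16.5 dpc.

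The mitochondrial chaperonin is encoded by a pair of neighbouring genes, Hspd1 for HSP60 and Hspe1 for its lid HSP10. Their RefSeq start sites (GRCm38.p6) lie on opposite strands of chromosome 1, and for 1 of the 2 listed Hspd1 starts they are 216 bases apart, so that the promoter windows of 300 bases share 285 bases. The Hspe1 window, from 250 bases before to 50 after its start, is shown because it holds the element discussed further on, in capitals (chr1:55087898-55088197, plus strand).
Hspe1: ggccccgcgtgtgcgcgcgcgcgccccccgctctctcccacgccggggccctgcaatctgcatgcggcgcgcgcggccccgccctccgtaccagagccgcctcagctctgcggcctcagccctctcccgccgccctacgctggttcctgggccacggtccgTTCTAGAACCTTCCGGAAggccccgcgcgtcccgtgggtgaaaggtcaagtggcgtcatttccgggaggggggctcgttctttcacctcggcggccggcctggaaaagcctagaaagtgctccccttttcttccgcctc
The capitals are 2 overlapping matches of a 3-unit heat shock element, which is GAA, its reverse complement TTC and GAA again (or the same read from the other strand), with any 2 bases between the units. Being shared, the same element lies in the Hspd1 window.

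Hspd1 fell with age, and Hspe1 was called over the 5 ages but not between the ends. Hspd1 had signals of 2896 and 2389.5 at 11.5 dpc, 3149 and 2031 at 12.5 dpc, 2552 and 2101 at 14.5 dpc, 1715 and 1696 at 16.5 dpc, then 1677 and 1395 at 18.5 dpc. All 4 samples of 16.5 and 18.5 dpc lay below all 6 younger ones, and the log2 change was -0.78 ± 0.20 (adjusted p = 0.0234). Without either 18.5 dpc sample or the first 11.5 dpc sample the adjusted p reached up to 0.167. Hspe1 had 2483 and 1756 at 11.5 dpc, 1411 and 1844 at 12.5 dpc, 2041 and 2156 at 14.5 dpc, 1002 and 1239.9 at 16.5 dpc, then 1589 and 1538 at 18.5 dpc. Its 2 samples at 16.5 dpc were the lowest and did not overlap with any other age. The F test was called (adjusted p = 0.0256), while the log2 change was -0.90 ± 0.19 for 16.5 over 14.5 dpc (adjusted p = 0.0524) and -0.41 ± 0.19 for 18.5 over 11.5 dpc (adjusted p = 0.171). A second, dim Hspd1 probe set had signals of 27.1 to 82.8 and a log2 change in the other direction, 0.65 ± 0.32, which was not called (adjusted p = 0.198). The mean of both Hspd1 probe sets was -0.06. Without the first 11.5 dpc sample 1 of the 3 probe sets of the mitochondrial chaperonin was called higher and none lower.

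The HSP70 of mitochondria, Hspa9, had 952 and 906 at 11.5 dpc, 830 and 1003 at 12.5 dpc, 829 and 865 at 14.5 dpc, 771 and 837 at 16.5 dpc, then 1026 and 1004 at 18.5 dpc on array A, with no call in any comparison. On array C Hspa9 had 94.2 and 80.1 at 18.5 dpc against 127 and 247 at 11.5 dpc, without a call (-0.92 ± 0.41, against 0.13 on array A). Dnaja3, its J-domain partner, had a log2 change of 0.57 ± 0.18 (adjusted p = 0.0531). Both 18.5 dpc samples of Dnaja3, 287 and 334, lay above both 11.5 dpc samples, 218 and 191.

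In the ER, the HSP70 protein BiP, encoded by Hspa5, and the HSP90 protein GRP94, encoded by Hsp90b1, fold secreted and membrane proteins. Hsp90b1 had 2275 and 2010.5 at 11.5 dpc, 1735 and 1830.5 at 12.5 dpc, 1998 and 1980 at 14.5 dpc, 1620.1 and 1554 at 16.5 dpc, then 1360.1 and 1414 at 18.5 dpc. Both 18.5 dpc samples were the lowest of the 10 and both 11.5 dpc samples the highest. Hsp90b1 had a log2 change of -0.62 ± 0.13 (adjusted p = 0.0087), with up to 0.0948 when either 18.5 dpc sample was left out. Hspa5 had 2725 and 1914 at 11.5 dpc, 1399 and 1594 at 12.5 dpc, 2075 and 1653 at 14.5 dpc, 1912 and 1851 at 16.5 dpc, then 1635 and 1325 at 18.5 dpc. The 18.5 dpc samples lay below those of 11.5 dpc, with the 12.5 dpc samples as low as the oldest ones. Hspa5 had a log2 change of -0.63 ± 0.19 (adjusted p = 0.0433), a call kept in 3 of the 10 analyses that left out 1 sample and lost in the others, both 18.5 dpc samples and the first 11.5 dpc sample among them, with an adjusted p of up to 0.271.

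Smaller ER members went in both directions. Dnajb11, a J-domain cochaperone of BiP, had 93.4 and 88.5 at 11.5 dpc, 73.5 and 73.8 at 12.5 dpc, 189 and 164 at 14.5 dpc, 156 and 170.4 at 16.5 dpc, then 135 and 144 at 18.5 dpc. The samples of 14.5 dpc and later were all above those of 11.5 and 12.5 dpc. It rose for 14.5 over 12.5 dpc (1.10 ± 0.17, adjusted p = 0.00523) and between the ends of the series (0.54 ± 0.17, adjusted p = 0.0465). The second of these calls was lost in each of the 10 analyses without 1 sample (adjusted p from 0.0574 to 0.211), the first in 3 of them, without either 12.5 dpc sample or without the first 14.5 dpc sample (up to 0.0562).

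Dnajb9, which helps BiP to restrain the stress sensor IRE1, split by probe set. The dimmer one rose (1.08 ± 0.27, adjusted p = 0.018), with 133 and 140 at 18.5 dpc against 37.9 and 80.8 at 11.5 dpc, and lost the call without either 18.5 dpc sample or the first 11.5 dpc sample (up to 0.113). The brighter one had -0.39 and was not called. Dnajc3, a cochaperone that also inhibits the kinase PERK, rose on a probe set with the suffix r (1.28 ± 0.25, adjusted p = 0.00551, 0.0696 without the first 18.5 dpc sample). Its brighter probe sets gave -0.39, 0.54 and -0.14, none of them called. Dnajc10, a reductase of the ER, had -0.04 and was not called. Hspa13, an HSP70 relative of microsomes, fell on 1 of its 5 tested probe sets (-0.94 ± 0.24, adjusted p = 0.02, up to 0.145 without either 18.5 dpc sample or the first 11.5 dpc sample). The other 4 had log2 changes from -1.05 to -0.23.

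Of the members with a promoter window in RefSeq, 3 carried the ER stress element, written here as CCAAT, 9 bases of any kind and CCACG, on either strand. They were Hspa5, Hsp90b1 and Dnajc3. That is 3.57% of the 84 windows of 66 members, against 0.119% of the 32851 windows of all genes. The stretches around the matches, in capitals, are shown because these are the ER members described above (GRCm38.p6). They lie at chr2:34771995-34772073 on the plus strand for Hspa5, at chr10:86705503-86705686 on the minus strand for Hsp90b1, which has 2 matches, and at chr14:118937797-118937875 on the plus strand for Dnajc3.
Hspa5: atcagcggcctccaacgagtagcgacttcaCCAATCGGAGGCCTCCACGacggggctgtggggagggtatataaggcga
Hsp90b1: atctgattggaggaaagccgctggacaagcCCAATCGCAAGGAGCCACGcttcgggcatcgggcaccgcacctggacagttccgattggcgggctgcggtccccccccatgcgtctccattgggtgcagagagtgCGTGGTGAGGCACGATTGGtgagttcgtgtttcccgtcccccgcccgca
Dnajc3: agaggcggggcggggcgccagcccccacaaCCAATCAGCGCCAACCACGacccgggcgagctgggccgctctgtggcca
Within these windows the match began 65 bases before the start of Hspa5, 212 and 107 bases before that of Hsp90b1 and 105 bases before that of Dnajc3. A match is a description of the letters. Since ER chaperone genes are known to answer to the unfolded protein response, a higher share among members was to be foreseen and is no test. Hspa5 and Hsp90b1 fell by the test and Dnajc3 gave both signs across its probe sets.

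Several chaperones of the cytosol had their lowest signals at 16.5 dpc. Hsph1, an HSP110 nucleotide exchange factor for HSP70, had 702 and 505 at 11.5 dpc, 583 and 499.7 at 12.5 dpc, 429 and 555 at 14.5 dpc, 329.7 and 321 at 16.5 dpc, then 749.5 and 625 at 18.5 dpc. Its 16.5 dpc samples were the lowest of all, and those of 18.5 dpc lay above every sample of 12.5, 14.5 and 16.5 dpc. It rose for 18.5 over 16.5 dpc (1.04 ± 0.19, adjusted p = 0.0342) and was called in the F test (adjusted p = 0.0197), while 18.5 over 11.5 dpc gave 0.20 (adjusted p = 0.549). The interval call was lost without any 1 sample of 12.5, 16.5 or 18.5 dpc, with an adjusted p of up to 0.281.

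Other members had this shape without a call for the interval. Hspa4, another HSP110 protein, had 669 and 565 at 11.5 dpc, 590.1 and 527 at 12.5 dpc, 541 and 623 at 14.5 dpc, 324 and 420.4 at 16.5 dpc, then 546 and 588 at 18.5 dpc on its brightest probe set. Both 16.5 dpc samples were below all others, and the log2 change was -0.63 ± 0.17 for 16.5 over 14.5 dpc (adjusted p = 0.103) and 0.60 ± 0.17 for 18.5 over 16.5 dpc (adjusted p = 0.152). Of the other 4 Hspa4 probe sets, 1 was called in the F test (adjusted p = 0.0215). It had 326 and 293 at 12.5 dpc, its highest age, and 163 and 167 at 16.5 dpc, its lowest. Between the ends the 5 Hspa4 probe sets had log2 changes from -0.12 to 0.31, none called.

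Hspa8, the constitutive HSP70 of the cytosol, had 3613 and 2404 at 11.5 dpc, 3172 and 3324 at 12.5 dpc, 2886 and 2916 at 14.5 dpc, 2369 and 2123 at 16.5 dpc, then 3042 and 2916 at 18.5 dpc. The 16.5 dpc samples were the lowest, with log2 changes of -0.37 ± 0.18 and 0.41 ± 0.18 into and out of that age, neither called. Hsp90aa1, the stress-responsive cytosolic HSP90, had 6357 and 4820.1 at 11.5 dpc, 4176 and 6353 at 12.5 dpc, 5766 and 5673 at 14.5 dpc, 3994 and 4600 at 16.5 dpc, then 5537 and 5403 at 18.5 dpc. At 16.5 dpc it lay below 14.5 and 18.5 dpc but overlapped with 12.5 dpc, and it was not called in any comparison. Dnajb6, a J-domain protein that keeps polyglutamine chains from aggregating, had 908 and 828 at 11.5 dpc, 780.4 and 767 at 12.5 dpc, 793 and 887 at 14.5 dpc, 608 and 687 at 16.5 dpc, then 822 and 817 at 18.5 dpc. Its 16.5 dpc samples were below all others on this probe set, without a call. The other tested Dnajb6 probe set gave -0.38 between the ends and was not called.

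In all, 22 tested member probe sets of 18 genes had both 16.5 dpc signals below all 4 signals of 14.5 and 18.5 dpc. That is 16.7% of the 132, against 8.93% of all tested probe sets. This count was chosen after the values were seen, and both sides of it rest on the same 2 samples of 16.5 dpc. The median log2 change of 16.5 over 14.5 dpc was -0.38 for the cytosolic chaperonin, -0.27 for HSP70 and HSP110 and -0.44 for the mitochondrial chaperonin, against 0.0027 over all tested probe sets. Without the second 16.5 dpc sample these medians were -0.25, -0.09 and -0.43. Prefoldins, tubulin cofactors and other partners of the chaperonin had a median of -0.51 over the same interval, with none of 15 called. The summed signal of 10 germ cell markers was 3459 and 2299 at 14.5 dpc, 1963 and 2071 at 16.5 dpc, then 4596 and 4558 at 18.5 dpc. For 5 stroma markers the sums were 1978 and 2260 at 14.5 dpc, 5090 and 3131 at 16.5 dpc, then 2669 and 2891 at 18.5 dpc. The germ cell markers did not move as one. Dppa3, Stra8 and Pou5f1, which are switched on and off as germ cells mature, fell for 16.5 over 14.5 dpc, Dppa3 with 33.2 and 25.3 at 16.5 dpc against 479 and 347 at 14.5 dpc. Ddx4, a helicase of germ cells, had 275 and 294 at 16.5 dpc against 279 and 294 at 14.5 dpc, and Sycp1 had 609.9 and 748 at 16.5 dpc against 404 and 239 at 14.5 dpc, neither called. The part of germ cells and stroma in the low signals of 16.5 dpc was not tested.

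**Figure D3:**
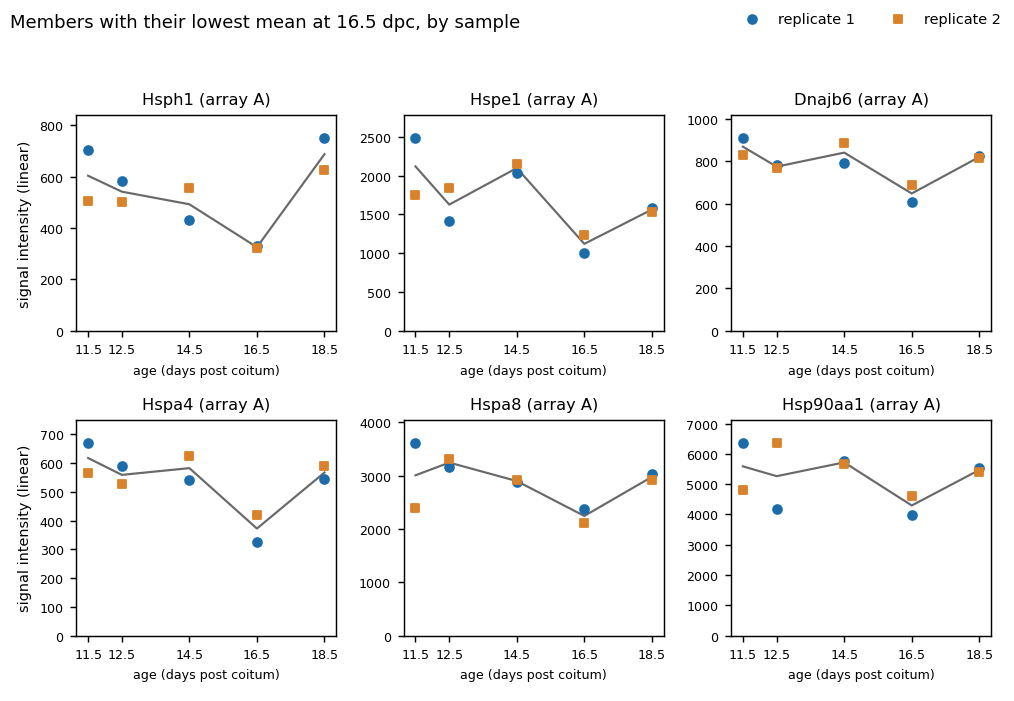
Signal intensity (linear axis from 0) by age in days post coitum of 6 members whose mean was lowest at 16.5 dpc. Circles are the first and squares the second sample of an age, and the line joins the means. Hsph1 is the 1 member called for 18.5 over 16.5 dpc.

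The 3-unit heat shock element occurred in the windows of 4 members, Hsph1, Hspd1, Hspe1 and Dnajb6, in 7.14% of the 84 member windows against 0.603% of all windows. The shorter form GAANNTTC, contained in the 3-unit element, occurred in 20.2% of member windows (15 genes) against 7.86% of all. Both strands were searched. Since heat shock elements are known from genes of this family, higher shares among members were to be foreseen and are no test. The member share of the 3-unit element counts the same stretches of DNA repeatedly. Hspd1 and Hspe1 share their element, and Dnajb6 and Hsph1 each have 2 overlapping windows with the same match. Overlapping windows of all genes were not merged either. The Hsph1 window (chr5:149636287-149636586, minus strand) and a stretch of the Dnajb6 window (chr5:29735817-29735899, plus strand) are shown, with the 3-unit match in capitals. Both genes were lowest at 16.5 dpc on the probe sets described above.
Hsph1: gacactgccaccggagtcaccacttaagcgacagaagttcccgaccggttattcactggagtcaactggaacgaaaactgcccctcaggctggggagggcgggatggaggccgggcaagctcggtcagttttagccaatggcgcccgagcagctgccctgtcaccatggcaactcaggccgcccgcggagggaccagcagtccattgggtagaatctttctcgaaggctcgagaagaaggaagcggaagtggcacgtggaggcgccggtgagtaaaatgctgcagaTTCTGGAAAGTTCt
Dnajb6: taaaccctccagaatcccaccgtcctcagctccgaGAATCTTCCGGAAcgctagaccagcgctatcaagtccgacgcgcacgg
The Hsph1 match lies after the annotated start, 36 to 48 bases into the transcript by this window. The Dnajb6 match begins 46 bases before the start by its first window and 127 bases before it by the other. On the probe sets described above, Hspe1, Hsph1 and Dnajb6 had their lowest means at 16.5 dpc, and Hspd1 had its lowest at 18.5 dpc. Of the other 11 genes with the shorter form, Dnaja4, with 2 matches, rose between the ends of the series. Hspa1b and Cct8l1 were too dim to be tested. Cct2, Hspa1a, Dnaja1, Dnajc27, Hspb1, Hspb3, Hspb6 and Hspb8 were not called. Hspa1a and the called probe set of Dnaja4 had their highest means at 16.5 dpc, while Cct2 had its lowest there and Dnaja1 at 12.5 dpc. Hspa8 and Hsp90aa1 had no window to search.

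Of the classical heat-inducible genes, Hsph1 and Hsp90aa1 were described above, and the inducible HSP70 genes were dim. Hspa1a had 50.2 and 23.6 at 11.5 dpc, 70.3 and 62.1 at 12.5 dpc, 55.4 and 37.8 at 14.5 dpc, 70.8 and 74.1 at 16.5 dpc, then 56 and 34.1 at 18.5 dpc. Its 16.5 dpc samples were the highest of the 10, above those of 14.5 and 18.5 dpc without overlap, and its 12.5 dpc samples lay above those of 11.5 and 14.5 dpc. No comparison was called (0.51 ± 0.29 for 16.5 over 14.5 dpc, adjusted p = 0.429). Hspa1b, its near-identical neighbour, stayed at or below 46.8 and was not tested. Hspb1, which encodes HSP27, was at or below 23.4 on its plain probe set. A second Hspb1 probe set, with the suffix f, ranged from 10.1 to 248, and its 2 samples of an age differed as widely as the ages did (2.38 ± 0.93, adjusted p = 0.109). Dnajb1, the main J-domain partner of inducible HSP70, had signals of 121 to 218 and 74.8 to 248 and log2 changes of 0.47 and -0.83 on its 2 probe sets, neither called. Among 13 tested immediate early genes, which respond to tissue handling, Nr4a1 rose and Jund, Ier2 and Dusp1 fell between 11.5 and 18.5 dpc. Over all genes, counted on 1 probe set each, 17.5% were called between these ages. Fos was called in the F test alone (adjusted p = 0.0436), with 64.3 and 34 at 11.5 dpc, 9.7 and 18 at 12.5 dpc, 45.2 and 58.3 at 14.5 dpc, 14.3 and 13.6 at 16.5 dpc, then 22.8 and 25.4 at 18.5 dpc. Jun and Egr1 were not called in any comparison.

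Several members rose, some of them between 12.5 and 14.5 dpc. Hspa4l, an HSP110 protein known from mouse testis, had 30.3 and 41.6 at 11.5 dpc, 49.6 and 35.5 at 12.5 dpc, 95.5 and 116 at 14.5 dpc, 121 and 121 at 16.5 dpc, then 137 and 166 at 18.5 dpc. The samples of 14.5 dpc and later were all above all those of 11.5 and 12.5 dpc. All signals of 11.5 and 12.5 dpc lay below the floor of 50, so the probe set passed the filter only through the later ages. Hspa4l rose for 14.5 over 12.5 dpc (1.06 ± 0.21, adjusted p = 0.0272) and between the ends (1.69 ± 0.21, adjusted p = 0.000322). When limma was run without the filter on dim probe sets, the change of 14.5 over 12.5 dpc was not called (adjusted p = 0.0626). The change between the ends stayed called in all 10 analyses that left out 1 sample, while that of 14.5 over 12.5 dpc was lost without any 1 sample of these 2 ages (up to 0.186). A second Hspa4l probe set, on array C, gave 1.07 ± 0.39 (adjusted p = 0.0893).

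Dnaja4, a J-domain protein of type A, had 30.6 and 38.2 at 11.5 dpc, 73.6 and 45.4 at 12.5 dpc, 81.9 and 62.5 at 14.5 dpc, 178 and 172 at 16.5 dpc, then 136 and 156 at 18.5 dpc. Both the 16.5 and the 18.5 dpc samples were above all younger ones, and the log2 change was 1.68 ± 0.30 (adjusted p = 0.00237), kept in all 10 analyses without 1 sample. Its other 2 probe sets gave 0.42 and 1.46 and were not called. Dnajc15, a J-domain protein of the mitochondrial inner membrane that restrains respiratory complex I, had 223 and 244 at 11.5 dpc, 285 and 248 at 12.5 dpc, 489.5 and 416 at 14.5 dpc, 437 and 494 at 16.5 dpc, then 443 and 476 at 18.5 dpc. Its signals fell into 2 levels without overlap, the younger one up to 12.5 dpc and the older one from 14.5 dpc. The log2 change was 0.73 ± 0.16 for 14.5 over 12.5 dpc (adjusted p = 0.041) and 0.93 ± 0.16 between the ends (adjusted p = 0.00222). The change between the ends was kept in all 10 analyses without 1 sample, and the interval call in only 2 of them, being lost without any sample of 12.5, 14.5, 16.5 or 18.5 dpc (up to 0.222). A second Dnajc15 probe set also rose (1.10 ± 0.28, adjusted p = 0.0194, up to 0.111 without any 1 sample of 11.5 or 18.5 dpc).

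Dnajc21, which takes part in the making of the large ribosomal subunit, had 34.2 and 30.8 at 11.5 dpc, 78.8 and 40.4 at 12.5 dpc, 90 and 48.4 at 14.5 dpc, 81.1 and 82.3 at 16.5 dpc, then 153 and 126 at 18.5 dpc. Both 18.5 dpc samples were above all others and both 11.5 dpc samples were the lowest. It rose by 1.67 ± 0.29 (adjusted p = 0.0023), kept in all 10 analyses without 1 sample. Its other 3 probe sets were not called, with log2 changes of 0.82, 0.37 and -0.45.

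**Figure D4:**
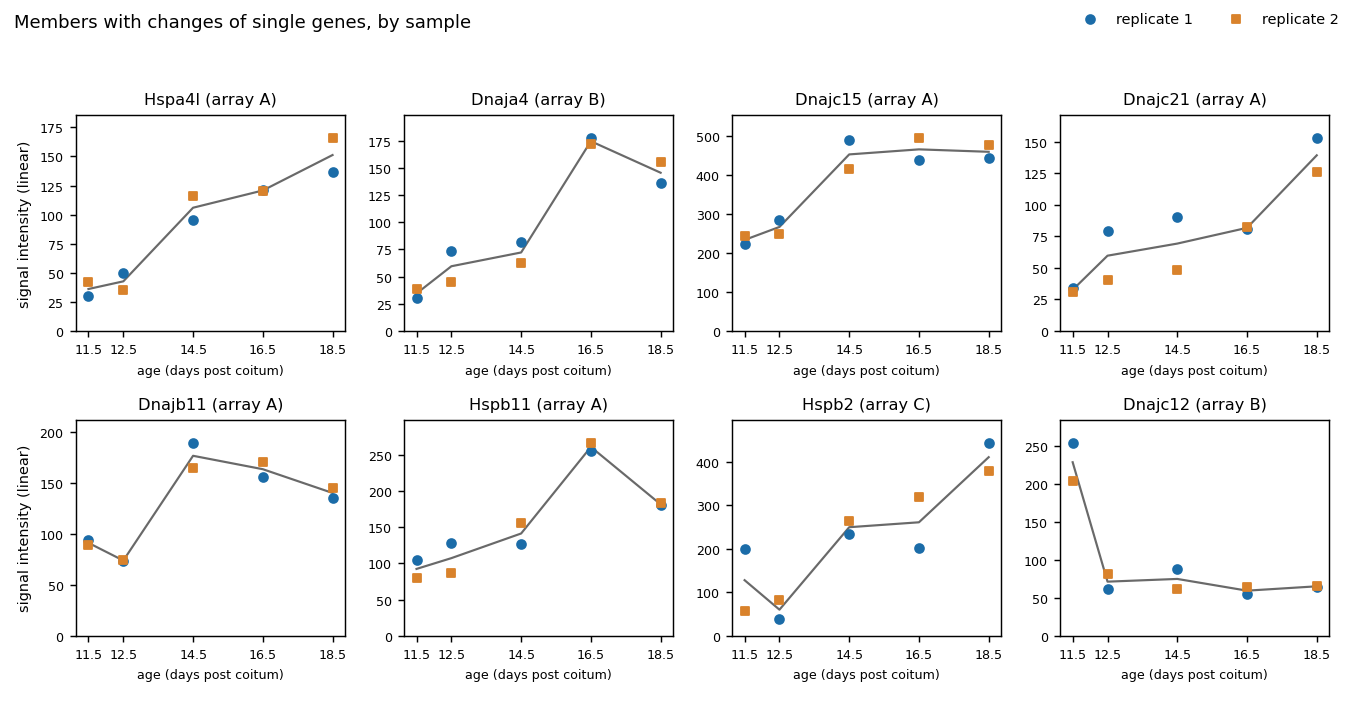
Signal intensity (linear axis from 0) by age in days post coitum of 7 members that rose and of Dnajc12, which fell. Circles are the first and squares the second sample of an age, and the line joins the means. Hspa4l, Dnajb11 and Dnajc15 stepped up between 12.5 and 14.5 dpc, and Dnajc12 was high at 11.5 dpc alone.

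Dnajc12, a J-domain protein that binds the aromatic amino acid hydroxylases, fell between the ends. Its signals were 254 and 204 at 11.5 dpc, 61.8 and 80.9 at 12.5 dpc, 88.7 and 61.2 at 14.5 dpc, 54.6 and 64.3 at 16.5 dpc, then 64.2 and 66.2 at 18.5 dpc. Both 11.5 dpc samples stood far above every other sample, and the later ages overlapped. The log2 change was -1.59 ± 0.29 between the ends (adjusted p = 0.00292), kept in all 10 analyses without 1 sample, and -1.49 ± 0.29 for 12.5 over 11.5 dpc (adjusted p = 0.066). Dnajc8, a J-domain protein associated with the spliceosome, had 812 and 449 at 11.5 dpc, 433 and 362 at 12.5 dpc, 557 and 458 at 14.5 dpc, 311 and 155 at 16.5 dpc, then 221 and 167 at 18.5 dpc on the probe set that fell. All 4 samples of 16.5 and 18.5 dpc were below all younger ones (-1.58 ± 0.31, adjusted p = 0.0049, kept in all 10 analyses without 1 sample). That probe set has the suffix r, and the brighter Dnajc8 probe set gave -0.49 without a call.

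Dnajc9, a cochaperone of histones H3 and H4, had 490.2 and 514 at 11.5 dpc, 434 and 466 at 12.5 dpc, 357 and 504 at 14.5 dpc, 398 and 364 at 16.5 dpc, then 319 and 302 at 18.5 dpc. The 18.5 dpc samples were the lowest of all, and the log2 change was -0.67 ± 0.17 (adjusted p = 0.022, up to 0.131 without either 18.5 dpc sample or the second 11.5 dpc sample). Dnajb4, a partner of cytosolic HSP70, fell on both tested probe sets. The brighter one had 745 and 569 at 11.5 dpc, 401 and 472 at 12.5 dpc, 643 and 530.5 at 14.5 dpc, 399 and 502 at 16.5 dpc, then 275 and 407 at 18.5 dpc, with both 18.5 dpc samples below both of 11.5 dpc (-0.93 ± 0.23, adjusted p = 0.0161, up to 0.18 without the first sample of 11.5 or of 18.5 dpc). The dimmer one had -0.73 ± 0.23 (adjusted p = 0.0488) and lost its call in each of the 10 analyses without 1 sample (0.0535 to 0.278).

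Of the remaining J-domain genes with a call, Dnajc30, a mitochondrial protein that acts on ATP synthase, rose (0.70 ± 0.19, adjusted p = 0.0244, up to 0.144 without either 18.5 dpc sample or the first 11.5 dpc sample). It had 363 and 344 at 18.5 dpc against 200 and 224 at 11.5 dpc. Dnajc14, a protein of the ER membrane, rose (0.83 ± 0.24, adjusted p = 0.0364, up to 0.184 without any 1 sample of 16.5 or 18.5 dpc or the second of 11.5 dpc). Dnajc2, which sits at the ribosome's exit tunnel, rose on 1 of 3 probe sets (0.66 ± 0.18, adjusted p = 0.0269, up to 0.197 without either 18.5 dpc sample or the second 11.5 dpc sample), and the other 2 gave 0.26 and 0.21.

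Dnajb14, another protein of the ER membrane, rose on 1 of 4 probe sets (1.84 ± 0.50, adjusted p = 0.0262, up to 0.148 without either 18.5 dpc sample or the second 11.5 dpc sample). The remaining 3 lay between -0.30 and 0.92. Dnajb3, known from mouse spermatids, fell on its array C probe set with the suffix r (-0.95 ± 0.29, adjusted p = 0.0454), a call lost in each of the 10 analyses without 1 sample (0.052 to 0.153). The other Dnajb3 probe sets gave -0.49 and 0.39.

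Bright J-domain genes without a call included Dnaja1, a general partner of cytosolic HSP70, with 971 ± 4.31 at 18.5 dpc and 996 ± 249 at 11.5 dpc (± SD). Dnajb8 had a log2 change of 0.07, and Dnaja2 of 0.25. Dnajc25 had -0.43 on its brightest probe set and -0.67 and 0.20 on its other 2. Dnajc5, the cysteine string protein of secretory vesicles, had -0.17, -0.17, 0.12 and 0.28 on its 4 tested probe sets. Dnajb2, whose protein carries ubiquitin-binding motifs, had the J-domain type B change of largest size after Dnajb14, -1.37 ± 0.49, on a probe set that was not called (adjusted p = 0.0816), and its other 3 gave 0.76, -0.48 and -0.48.

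Other genes of this family known from male germ cells had no call. Hspa2, the HSP70 that male mouse meiosis needs, had 304 and 233 at 11.5 dpc, 228 and 188 at 12.5 dpc, 227 and 278 at 14.5 dpc, 329.8 and 289.9 at 16.5 dpc, then 239 and 313 at 18.5 dpc. The 16.5 dpc samples lay above those of 14.5 dpc, the 12.5 dpc samples lay below those of 11.5 dpc, and the other pairs of neighbouring ages and both ends overlapped. No comparison was called (0.04 ± 0.22 between the ends). Hspa1l was at or below 52.4 and was not tested. Dnajb13, a protein of the sperm axoneme, ranged from 48.8 to 107 on its tested probe set without a call.

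Among the genes named as small heat shock proteins, Hspb11 and Hspb2 rose. Hspb11, which despite its name is the intraflagellar transport protein IFT25, had 105 and 79.7 at 11.5 dpc, 128 and 87 at 12.5 dpc, 127 and 156 at 14.5 dpc, 256 and 267 at 16.5 dpc, then 181 and 183 at 18.5 dpc. The 16.5 dpc samples were the highest of all and those of 18.5 dpc next, with no overlap with the younger ages. Between the ends it was 0.88 ± 0.20 on the log2 scale (adjusted p = 0.0124), up to 0.0761 without either 18.5 dpc sample or the second 11.5 dpc sample. Hspb2, known from muscle, had 198 and 56.7 at 11.5 dpc, 38.2 and 81.2 at 12.5 dpc, 235 and 264 at 14.5 dpc, 202 and 319 at 16.5 dpc, then 443 and 378 at 18.5 dpc. Both 18.5 dpc samples were above all others, and the 2 samples of 11.5 dpc differed widely from each other.

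The log2 change of Hspb2 was 1.77 ± 0.47 (adjusted p = 0.0244, up to 0.159 without either 18.5 dpc sample or the second 11.5 dpc sample). Its array A probe set was called over the 5 ages (adjusted p = 0.0282) with its highest signals at 14.5 dpc, 205 and 158. Hspb8, a partner of Bag3, had 0.51, Hspb3 had 1.40, Hspb6 had 0.08 and Hspb7 had -0.28, none of them called.

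Hspbp1, a nucleotide exchange factor of HSP70, rose on 1 of 3 probe sets, which had 229 and 316 at 11.5 dpc, 359 and 358 at 12.5 dpc, 200.1 and 270.5 at 14.5 dpc, 427 and 457 at 16.5 dpc, then 592 and 515 at 18.5 dpc. Both 18.5 dpc samples were the highest, and those of 14.5 and 11.5 dpc the lowest. The log2 change was 1.00 ± 0.25 (adjusted p = 0.02, up to 0.134 without either 18.5 dpc sample or the first 11.5 dpc sample). On array A the Hspbp1 probe set had the same order of mean signals by age (1.22 ± 0.41, adjusted p = 0.0644), and the third, without the suffix f, had -0.48. Hspbap1 had its highest signals at 12.5 dpc, 289 and 339, and was not called.

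Hspg2, perlecan of the basement membrane, had 103 and 128 at 11.5 dpc, 174 and 127 at 12.5 dpc, 88.1 and 67 at 14.5 dpc, 185 and 178 at 16.5 dpc, then 148 and 139 at 18.5 dpc. The 14.5 dpc samples were the lowest and those of 16.5 dpc the highest. It rose for 16.5 over 14.5 dpc (1.09 ± 0.20, adjusted p = 0.0347), and the call was lost without any 1 sample of 14.5, 16.5 or 18.5 dpc (up to 0.174).

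Different probe sets of a gene often disagreed. Of the 36 member genes with at least 2 tested probe sets, 16 had all of them on the same side of 0 between the ends of the series. Of the 20 of these genes with a called probe set, 9 had another on the other side of 0, and 3 had at least 2 called, Cct5, Dnajb4 and Dnajc15. No gene had called probe sets in both directions. Among the probe sets called between the ends, those of Cct3, Dnajb14, Hspb2 and the first of Dnajc15 have the suffix s. Those of Cct6a, Dnajc2, Hspbp1 and the second of Dnajc15 have the suffix f. Of the 35 called changes of single probe sets in pairs of ages, 6 were kept in all 10 analyses that left out 1 sample, those between the ends of Hspa4l, Dnaja4, Dnajc12, Dnajc15, Dnajc21 and Dnajc8. None of the 35 changed sign in any alternative run.

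Cofactors outside the rule, taken from lists by function, were counted on 1 probe set per gene. Of 24 tested cochaperones, 1 rose, Bag4, and 6 fell between the ends, Stip1, Cdc37, Fkbp4, Ppid, Bag3 and Sugt1. That is 7 of 24 called, and of all 12589 genes so counted 17.5% were called, 9.14% higher and 8.37% lower. Bag4, Stip1 and Cdc37 were near the threshold, with adjusted p-values of 0.044, 0.0444 and 0.046 from limma. Stip1, which passes clients from HSP70 to HSP90, had 316 and 286 at 18.5 dpc against 429 and 467 at 11.5 dpc. Ppid, an HSP90-bound prolyl isomerase, had 383 and 318 at 18.5 dpc against 827 and 574 at 11.5 dpc. The median over the 24 was -0.08, against 0.02 over all genes.

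For the lists that follow, the share called between the ends over all genes on 1 probe set each is again 17.5%. Of 19 tested ER folding genes, Sdf2 rose, and Pdia3 and the collagen chaperone Serpinh1 fell. Of 10 mitochondrial folding and protease genes, Lonp1 and Timm44 rose and Clpx fell. Of 15 chaperonin partners, the tubulin cofactor Tbcd rose. Among the heat shock factors and their regulators, Hsbp1, which binds HSF1, rose, and Hsf2 had -1.26 without a call. Hsf2bp, now known for a role in meiotic recombination, rose for 14.5 over 12.5 dpc, with 2849.6 and 4985 at 14.5 dpc against 909 and 824 at 12.5 dpc.

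The cell makeup of the samples moved with age beside these results. Counted on 1 probe set per gene, 9.14% of all genes were called higher and 8.37% lower between the ends. The summed signal of 10 germ cell markers was 4596 and 4558 at 18.5 dpc against 966.5 and 894 at 11.5 dpc, with 7 of the 10 rising and Pou5f1 falling. For 6 pregranulosa markers the sums were 2919 and 3154 at 18.5 dpc, with 1634 and 2148 at 11.5 dpc, and 5 rose. Wnt4, the marker that was not called (-0.41), made up most of the 11.5 dpc sums, with 1392 and 1834. It had 1145 and 1259 at 18.5 dpc. For 5 tested endothelial markers 18.5 dpc had 242.3 and 237.1 and 11.5 dpc had 514.5 and 570.8, and 3 fell. All 5 tested erythroid markers were called between the ends, with the 3 embryonic globins falling and Hba-a1 and Alas2 rising. Of 5 stroma markers Col1a1 and Col3a1 rose and Nr2f2 fell. Of 6 testis markers Sox9, Dhh and Ptgds passed the filter, and none of these 3 was called. The ratio of the 3′ to the 5′ Gapdh signal, a sign of RNA quality averaged over the 3 types, was 1.08 and 1.05 at 18.5 dpc, against 0.845 and 0.829 at 11.5 dpc. The part of the cell makeup and of RNA quality in the changes of the heat shock genes was not tested.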

How the data were processed

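Transcript abundance was measured in pooled mouse embryonic ovaries at 5 ages with 2 numbered samples each, on 3 types of Affymetrix array. Per the labels, the authors scaled the deposited signal intensities of each array to an average of 125. The 2% trimmed means of the 30 arrays lay between 125.02 and 125.08. The software that made the signals and any detection calls are not given in the sources used here. Genes were named from the platform annotation and all 79 symbols were found in RefSeq (GRCm38.p6).

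From these intensities log2(signal + 16) was computed. Probe sets with a signal of at least 50 on at least 2 of the 10 arrays of a type were fitted with limma 3.58.1 in R 4.3.3 (lmFit, eBayes with an intensity trend), ages as 5 groups and 5 residual degrees of freedom. Neighbouring ages, 18.5 against 11.5 dpc and all ages (F test) were compared, with Benjamini-Hochberg adjustment over the 3 types together. The procedure was tested on simulated data. Alternatives changed the pseudocount, the filter, the scaling, the trend, the adjustment, the probe sets, the replicate block and the samples. The arrays' number limits the precision.

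Genes were named with values if they had a called probe set, were among the 3 brightest of a role or had its largest change, or belonged to the Cct, heat-inducible, ER, mitochondrial or germ-cell-related members or were Hspg2. For these genes the other tested probe sets are given where their log2 changes between the ends differ in sign. The members, roles and lists were chosen with earlier results of these data known. Promoter windows are those of RefSeq, with 66 of the 79 members matched by symbol. Searches for elements were run in Python 3.11.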

Additional observations from a re-analysis of the deposited data

How the results depend on the processing

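The numbers of member probe sets called were 30 for 18.5 over 11.5 dpc, 26 over the 5 ages, and 0, 3, 1 and 1 for the intervals from 12.5 over 11.5 dpc on. The share of all probe sets called under each alternative was not counted. The counts below therefore have no baseline and do not show a trait of the members. Leaving out 1 sample gave 7 to 28 between the ends, with 7 without the first and 9 without the second 18.5 dpc sample and 17 without the first 11.5 dpc sample, and 11 to 35 over the 5 ages. It gave 0 to 7 for 12.5 over 11.5 dpc, 0 to 8 for 14.5 over 12.5 dpc, 0 to 10 for 16.5 over 14.5 dpc and 0 to 1 for 18.5 over 16.5 dpc, and the cause was not tested. A fit without the intensity trend called 19 between the ends, 16 over the 5 ages, and 0 for both 16.5 over 14.5 and 18.5 over 16.5 dpc. Plain probe sets alone gave 19 between the ends, of the 97 that were then left to count. A pseudocount of 64 gave 1 for 12.5 over 11.5 dpc. For 16.5 over 14.5 dpc there were 2 with that pseudocount, with quantile normalization and with adjustment within each array type, 3 with a signal floor of 100, 0 without a floor and 0 without Hspg2. With the replicate number as a block (replicate block) the counts were 29 between the ends, 25 over the 5 ages, and 0, 2, 2 and 1 for the intervals. The numbers share only a label: half-differences between the 2 samples correlated between ages by -0.161 to 0.219 on array A, and 1 of 10 pairs of ages there exceeded 0.1. Averaging all tested probe sets of a gene, possible for 11 called changes, moved 8 of them by more than the standard error of the model. Among them were Hspd1 (-0.06), Cct3 (-0.36), Cct6a (-0.40) and Dnajb3 (-0.35). No called change of a single member reversed under these settings.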
